A study of Mus musculus with 2 samples.

Results

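The regions described here are 500 stretches of chromatin that were less accessible in Nfia/b/x-deficient than in control tanycytes of all 4 subtypes (alpha1, alpha2, beta1 and beta2), out of 107377 regions measured in the mouse hypothalamus. They were chosen from the measured values themselves. For each region, each cell type and each library, the number of cells in which the region was found was divided by all detections of those cells and multiplied by 1000000 (CPM, where a detection is 1 region found accessible in 1 cell). The difference for a type was log2(CPM + 5) in the deficient library minus the same in the control library. Each region was scored by its highest difference over the 4 subtypes, so that a low score required a fall in each of them, and the 500 lowest scores were taken. Values in these 4 subtypes are therefore given as a description, and only neurons, proliferating tanycytes, astrocytes, oligodendrocyte precursor cells (OPCs) and ependymal cells hold cells that the choice did not use. Those cells still came from the same libraries.

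Tanycytes are radial glia-like cells whose bodies line the third ventricle and whose processes reach into the hypothalamus; alpha subtypes sit along the ventricle wall and beta subtypes towards its floor and the median eminence. NFIA, NFIB and NFIX are DNA-binding proteins of the nuclear factor I family, known for their part in the differentiation of glia and in the change of neural progenitors from making neurons to making glia. Accessible regions are places where nucleosomes give way to enzymes such as the Tn5 transposase, and they include promoters and enhancers occupied by such factors.

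Both libraries came from the mediobasal hypothalamus at postnatal day 8. Control mice carried Rax-CreER and CAG-lsl-Sun1-GFP, and the deficient mice carried in addition Nfialox/lox, Nfiblox/lox and Nfixlox/lox. Rax-CreER acts in tanycytes, and the Sun1-GFP tag that it switches on stays in their progeny, so the sorted GFP-positive cells should hold tanycytes and cells derived from them. Whether each sorted cell came from a tanycyte was not measured. How many animals went into a library is not stated by the labels, and recombination of the Nfia, Nfib and Nfix alleles in single cells was not measured. The cell types are those of the authors' annotation. The regions carry numbers that the files do not pair with positions or genes, so no sequence, coordinate or neighbouring gene is given, and neither the cell types nor the deletion could be checked at a marker locus.

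Each genotype had 1 library, so there is no replicate, no test between genotypes and no p-value; intervals are exact 95% intervals that cover counting error only. The control library held 8948 cells with a median of 4549.5 detections, and the deficient library held 13337 cells with a median of 4042. Per type and library, the number of cells ran from 63 (control proliferating tanycytes) to 4902 (deficient alpha2 tanycytes). The libraries had 204 cell barcodes in common. Leaving out the cells with these barcodes moved no summed ratio of the 500 regions outside its interval.

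Scores ran from -1.43 for the lowest region to -0.667 for both of the last 2 members. The next 2 regions, just outside, had -0.666 each, so the boundary falls in a continuous range of scores. Only 65 regions had a difference of -1 or lower in all 4 subtypes, and all of them were among the 500; such regions were 0.0605% of all regions. A region could reach the boundary only with a control level of at least 2.94 CPM in every subtype, which 46.2% of all regions had.

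The pair of regions with the lowest scores shows the pattern in single features. Region 82997 was found in 460 of 4306 control alpha2 cells (10.7%) and in 68 of 4902 deficient ones (1.39%). In alpha1 cells it was found in 82 of 473 control and 26 of 669 deficient cells, in beta1 cells in 202 of 1558 and 69 of 2448, and in beta2 cells in 118 of 904 and 14 of 1003. The deficient level was thus far below the control level in each subtype, from 0.129 times in beta2 (3.09 against 24.0 CPM) to 0.256 times in beta1 tanycytes (7.07 against 27.6 CPM).

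Outside the 4 subtypes, region 82997 had lower counts in neurons, where it was found in 76 of 882 control and 20 of 2520 deficient cells (20.2 and 2.03 CPM, log2 ratio -3.31, interval -4.10 to -2.59). Astrocytes, the star-shaped glia of the parenchyma, had 17.1 CPM in the control (30 of 325 cells) and 14.2 CPM in the deficient library (16 of 223 cells), a log2 ratio of -0.27 with an interval that included 0 (-1.25 to 0.65). In OPCs the log2 ratio was -0.85 (29 of 304 control and 14 of 274 deficient cells). In ependymal cells it was -0.89 (14 of 133 and 10 of 265 cells). Their intervals (-1.88 to 0.12 and -2.22 to 0.39) included 0 as well. In proliferating tanycytes 5 of 63 control and 9 of 1033 deficient cells carried the region. For this region the libraries were separated in tanycytes and neurons and not separated beyond counting error in the 3 other glial types. The intervals in those 3 types are wide because few cells carried the region.

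Region 45356, the second lowest by score, was found in 729 control (16.9%) and 152 of 4902 deficient alpha2 cells, or 25.7 and 5.83 CPM. Its highest control level among these subtypes was in beta2 tanycytes, with 38 CPM against 11.5 CPM in the deficient library. In neurons it had 11.4 and 3.46 CPM (log2 ratio -1.73, -2.42 to -1.04). In astrocytes it had 25.1 and 21.2 CPM, where the interval of the log2 ratio (-1.02 to 0.51) included 0, as did that in ependymal cells (-1.88 to 0.45). In OPCs it had 19.5 and 9.01 CPM, and the interval (-2.34 to -0.0096) just left out 0. Its control level in neurons was near the members' median there (11.7 CPM), and in control proliferating tanycytes 12 of 63 cells carried it against 20 of 1033 deficient cells.

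**Figure D1:**
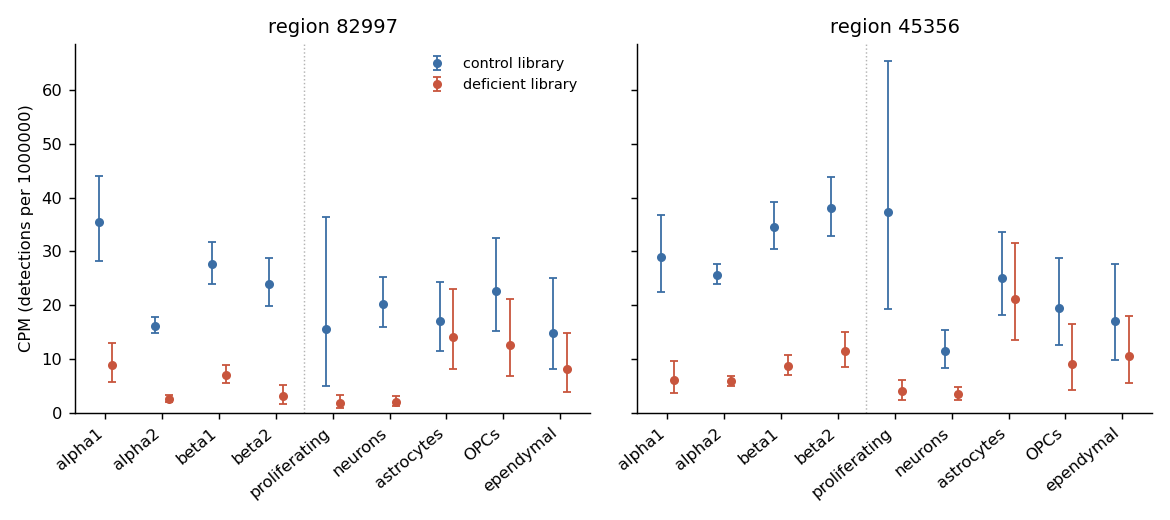
Level of regions 82997 and 45356 in CPM (vertical axis) in each cell type (horizontal axis), control in blue and deficient in red, with exact 95% Poisson intervals for counting error. Types left of the dotted line were used to choose the regions. The libraries' intervals are apart in the 4 subtypes and in neurons, and overlap in astrocytes, OPCs and ependymal cells for both regions.

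In the control library the 500 regions were well accessible, though not among the most open of all. Averaged over the 4 subtypes, their control level had a median of 18 CPM, from 5.67 to 69.5 CPM, against 4.25 CPM for the median of all regions. The median member stood at percentile 84.8 of all regions in control tanycytes, and 123 members were in the top 10%. The rule favours regions with a high control level, so this is a property of the choice.

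In the control library the regions were also accessible in types other than tanycytes. Together they took 12.1 of every 1000 detections in control alpha1, 10.3 in beta1, 10.1 in alpha2 and 8.38 in beta2 tanycytes, where 500 regions of mean level would take 4.66. They took 8.83 in control astrocytes, 8.51 in ependymal cells, 8.32 in OPCs and 6.87 in neurons, all above the mean level too. Of the 500, 68 (13.6%) were higher in each of the 4 subtypes than in neurons, astrocytes, OPCs and ependymal cells of the control library, against 3.86% of all regions. A total of 229 (45.8%) had, in each of those 4 other types, at least 50% of their mean tanycyte level, against 55.1% of all regions. By both measures the members leaned towards tanycytes more than regions in general, which the rule favours by requiring a high control level in the subtypes.

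A comparison list of tanycyte-shared regions was taken from the control library alone: the 500 regions whose lowest level among the 4 subtypes most exceeded their highest level in neurons, astrocytes, OPCs and ependymal cells. It had 17 regions (3.40% of either list) in common with the 500 lowered regions. As a list it was only slightly lower in the deficient library, with 86.7% of the control share of detections remaining in alpha2 tanycytes (6.92 per 1000 in the control). In neurons 102.6% of its control share was found. In proliferating tanycytes, whose levels did not enter this choice, 73.7% remained (63 control cells). The control levels that chose this list enter the other ratios. They favour falls in the tanycyte subtypes and rises in neurons, astrocytes, OPCs and ependymal cells.

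Within the 4 subtypes the 500 regions fell to roughly the level of an average region or below it. Their share in alpha2 tanycytes was 10.1 per 1000 control detections and 3.43 per 1000 deficient ones, so 34.0% of the control share remained. The remaining share was 36.0% in beta2 (8.38 and 3.02 per 1000), 39.0% in alpha1 (12.1 and 4.72) and 40.5% in beta1 tanycytes (10.3 and 4.16). These falls were fixed by the choice; with members chosen in odd-numbered cells and measured in even-numbered cells of the same libraries, the log2 ratios were -1.51 in alpha2, -1.32 in beta2, -1.25 in beta1 and -1.19 in alpha1 tanycytes, against -1.56, -1.47, -1.30 and -1.36 with all cells. The order of alpha1 and beta1 tanycytes was the opposite of that with all cells.

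**Figure D2:**
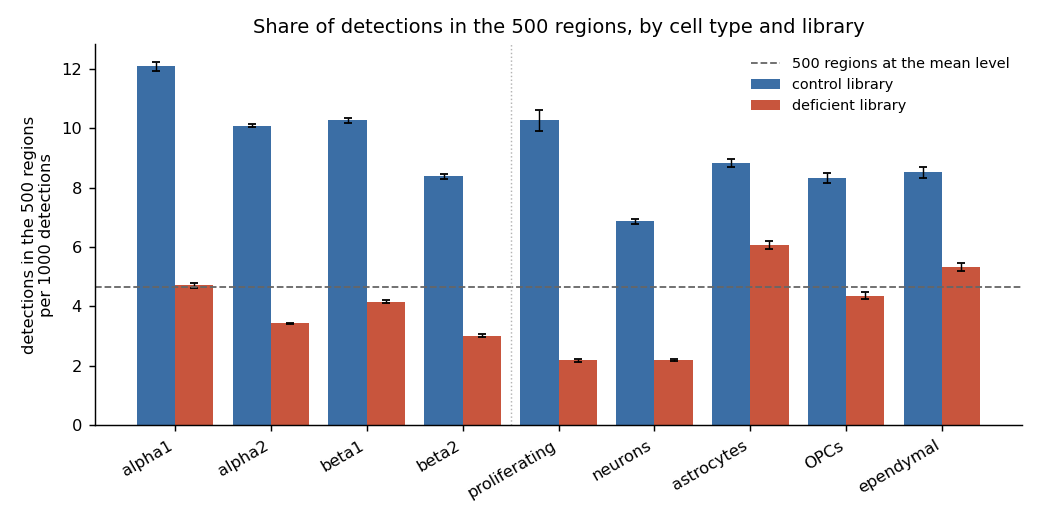
Detections in the 500 regions per 1000 detections (vertical axis) in each cell type (horizontal axis), control in blue and deficient in red, with exact 95% Poisson intervals; the dashed line is the 4.66 per 1000 that 500 regions of mean level would take. All 9 types are lower in the deficient library, proliferating tanycytes and neurons being near 2.2 per 1000 and astrocytes at 6.07.

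The regions were lowered rather than absent in deficient tanycytes. Averaged over the 4 subtypes, the remaining share of a member's control level had a median of 35.6% and ran from 7.35% to 56.6%. It was under 20% for 16 members and under 10% for 1. In the deficient library 349 of the 500 were still above the median of all regions. No member was at 0 in deficient alpha2 or beta1 tanycytes, while 3 members were undetected in deficient alpha1 cells, where a count of 0 allows up to 1.02 CPM, and 2 in beta2 cells, where it allows up to 0.663 CPM.

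Members differed in how deep the fall was. The 125 most accessible members, with 25.8 to 69.5 CPM in control tanycytes, had a median of 41.1% remaining, and the 125 least accessible, with 5.67 to 12.6 CPM, had 28.2%. The pseudocount of 5 CPM admits a weak region only with a steep fall, so this gradient is partly set by the rule. The member with the highest control level, ranked 480th by score, had 69.5 CPM in control and 39.2 CPM in deficient tanycytes as a mean of the 4 subtypes. The next by level (rank 310) had 55 and 27.6 CPM, and the third (rank 52) 50.9 and 19.9 CPM.

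Over the 4 subtypes a member's difference had a median range of 0.34 log2 units (5th to 95th percentile 0.13 to 0.69); the rule required a fall in each subtype and so limits this range. The count of members at a difference of -1 or lower was 282 in alpha2 (background over all regions 0.498%), 247 in alpha1 (background 0.8%), 183 in beta2 (0.343%) and 168 in beta1 tanycytes (0.243%). These differences chose the members, and the backgrounds are not matched for control level. With a pseudocount of 1 CPM the counts were 477, 409, 451 and 404 in the same order, over backgrounds of 2.92%, 5.10%, 3.09% and 1.94%, and with 10 CPM they were 84, 77, 45 and 39, over 0.0969%, 0.142%, 0.0587% and 0.0419%. Alpha2 tanycytes gave the lowest difference of the 4 for 194 members and beta1 tanycytes for 48. The smallest fall, which sets the score, was in beta1 tanycytes for 169 members, in beta2 for 159, in alpha1 for 119 and in alpha2 for 53.

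Neurons and proliferating tanycytes, whose cells the choice did not use, were also lower at these regions. In neurons their share was 6.87 per 1000 in control cells (25849 detections, interval 6.79 to 6.96) and 2.21 per 1000 in deficient cells (21739 detections, 2.18 to 2.24). The log2 ratio was -1.64 (-1.66 to -1.61), so 32.2% of the control share remained. In proliferating tanycytes the shares were 10.3 per 1000 (3293 detections from 63 cells, 9.92 to 10.6) and 2.19 (2.15 to 2.23), a log2 ratio of -2.23 (-2.29 to -2.17) with 21.3% remaining. The value in neurons was thus as low as in the tanycyte subtypes, and that in proliferating tanycytes was lower. The latter class had 63 control against 1033 deficient cells, so what belongs to the class and what belongs to the deficient library cannot be told apart there. Neurons were also unequal in number, with 882 of 8948 control and 2520 of 13337 deficient cells. Whether the neuron class held like cells in both libraries was not tested.

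Member by member, 498 of 500 were lower in deficient neurons, against 46.3% of all regions, and 484 were lower in deficient proliferating tanycytes, against 42.2%. A difference of -1 or lower was reached by 205 members in neurons (background 1.42%) and by 366 in proliferating tanycytes (background 4.31%). Such a difference needs at least 5 CPM in the control, so these backgrounds are not matched for control level. Control medians were 11.7 CPM for members and 4.52 CPM for all regions in neurons, and 18.7 and 3.12 CPM in proliferating tanycytes. The median difference of the members was -0.90 in neurons and -1.36 in proliferating tanycytes, where the median of all regions was 0.028 and 0.12. These counts move with the pseudocount: with 1 CPM in place of 5 they were 404 in neurons and 440 in proliferating tanycytes, over backgrounds of 6.25% and 13.5%, and with 10 CPM they were 80 and 248, over 0.373% and 1.36%.

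The fall in neurons was not limited to members that were weak there. The 125 members with the highest control level in neurons relative to tanycytes (0.848 to 3.59 times) had a log2 ratio of -1.88 (-1.92 to -1.84) in neurons, and the 125 with the lowest (0.203 to 0.450 times) had -1.33 (-1.40 to -1.26). The control neuron levels that formed these groups enter these ratios and tilt them in this direction. In alpha2 tanycytes the same groups had -1.59 and -1.62. Depth moved with the share in neurons: from the shallowest to the deepest 25% of cells it went from 5.09 to 7.74 per 1000 in the control and from 1.60 to 2.59 in the deficient library. The deficient share was the lower in both.

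Single members in neurons ranged widely. The lowest difference was that of the member ranked 26th by score, with 38.8 CPM in control (146 of 882 cells) and 3.25 CPM in deficient neurons (32 of 2520 cells). The highest was that of the member ranked 498th, with 5.58 CPM (21 cells) and 7.62 CPM (75 cells), a difference of 0.25. In proliferating tanycytes 14 members were undetected in the 63 control cells, where a count of 0 allows up to 9.35 CPM, so a single member's difference there has little precision.

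Astrocytes, OPCs and ependymal cells were lower at these regions by less. OPCs, the cells that give rise to oligodendrocytes, had 8.32 per 1000 in control (8.16 to 8.48) and 4.37 in deficient cells (4.25 to 4.49), a log2 ratio of -0.93 (-0.98 to -0.88). Ependymal cells, the ciliated lining of the ventricle, took 8.51 (8.33 to 8.70) and 5.33 (5.20 to 5.46), a log2 ratio of -0.68 (-0.72 to -0.63). Astrocytes took 8.83 (8.69 to 8.97) and 6.07 (5.93 to 6.22), a log2 ratio of -0.54 (-0.58 to -0.50). Of the control share, 52.5% remained in OPCs, 62.6% in ependymal cells and 68.8% in astrocytes.

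In these 3 types the members still stood apart from all regions, with fewer past the fold than in neurons. At the pseudocount of 5 CPM, a difference of -1 needs at least 5 CPM in the control. The backgrounds below are thus not matched for control level. Control medians were 15.4, 13.3 and 14.9 CPM for members in astrocytes, OPCs and ependymal cells, and 4.56, 4.69 and 4.26 CPM for all regions. In OPCs 124 members had a difference of -1 or lower (background 1.04%), in ependymal cells 75 (background 0.802%) and in astrocytes 36 (background 0.479%). Lower at all were 472 members in OPCs (background over all regions 47.5%), 443 in astrocytes (background 48.2%) and 440 in ependymal cells (background 46.9%). The astrocyte count was 82 with each cell thinned to 2000 detections, where the background was also higher, at 5.77%. With a pseudocount of 1 CPM the counts were 245, 158 and 102 in OPCs, ependymal cells and astrocytes, over backgrounds of 10.6%, 9.51% and 8.78%, and with 10 CPM they were 33, 19 and 3, over 0.122%, 0.0689% and 0.0168%.

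In order of the log2 ratio the types were proliferating tanycytes, neurons, alpha2, beta2, alpha1 and beta1 tanycytes, OPCs, ependymal cells and astrocytes. No neighbouring intervals overlapped, but they treat detections as independent, while counts per cell varied more than that, so they are too narrow. Differences between types could not be tested over animals.

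**Figure D3:**
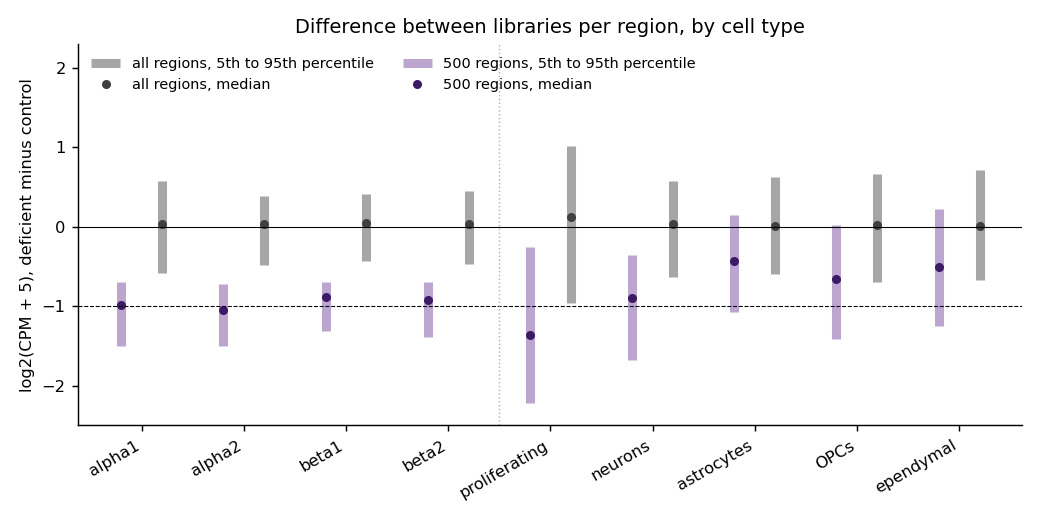
Difference of log2(CPM + 5), deficient minus control (vertical axis), per cell type (horizontal axis): median (dot) and 5th to 95th percentile (bar) over the 500 regions in purple and over all 107377 regions in grey. The dashed line marks -1; the median of the 500 regions goes from -1.36 in proliferating tanycytes to -0.44 in astrocytes, while the median of all regions stays between 0.007 and 0.12.

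Across the 5 types outside the choice, 358 members (71.6%) were lower in all 5, against 5.78% of all regions, and no member was lower in fewer than 2. A difference of -1 or lower was reached in none of the 5 types by 76 members, in 1 type by 173, in 2 by 149, in 3 by 74, in 4 by 27 and in all 5 by 1. Of all regions 93.2% reached it in none, 5.88% in 1, 0.785% in 2, 0.149% in 3, 0.0363% in 4 and 0.00186% in all 5. A difference of -1 needs at least 5 CPM in the control of a type, and the median of all regions was below that in each type. None of these shares of all regions is matched for control level. Members that were not lower in a type were most frequent in ependymal cells (60 members) and astrocytes (57), and least frequent in neurons (2).

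The unequal falls changed where the regions were most accessible. In the control library the highest level among the 9 types was in alpha1 tanycytes for 173 members (34.6%), against 9.44% of all regions. Proliferating tanycytes led for 93 (18.6%, against 16.8%) and beta2 tanycytes for 59 (11.8%, against 14.0%), both near the share of all regions. Astrocytes, OPCs and ependymal cells together led for 101 members (20.2%), against 38.1% of all regions. In the deficient library these 3 types led for 348 members (69.6%), against 47.0% of all regions. Astrocytes led for 159 (31.8%, against 14.4%), ependymal cells for 128 (25.6%, against 17.1%) and OPCs for 61 (12.2%, against 15.6%). Alpha1 tanycytes then led for 70 members (14.0%, against 9.85%) and alpha2 for 3 (0.6%, against 2.08%). Neurons led for 4 (0.8%, against 11.8%) and proliferating tanycytes for 0, against 7.06%. With proliferating tanycytes left out, the 3 glial types led for 24.4% of members in the control, against 44.8% of all regions. In the deficient library they led for 69.6%, against 49.1%. The choice favours a high control level in the 4 subtypes, and so their lead in the control library. It also fixed the fall in these subtypes and so favours the other types in the deficient library.

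**Figure D4:**
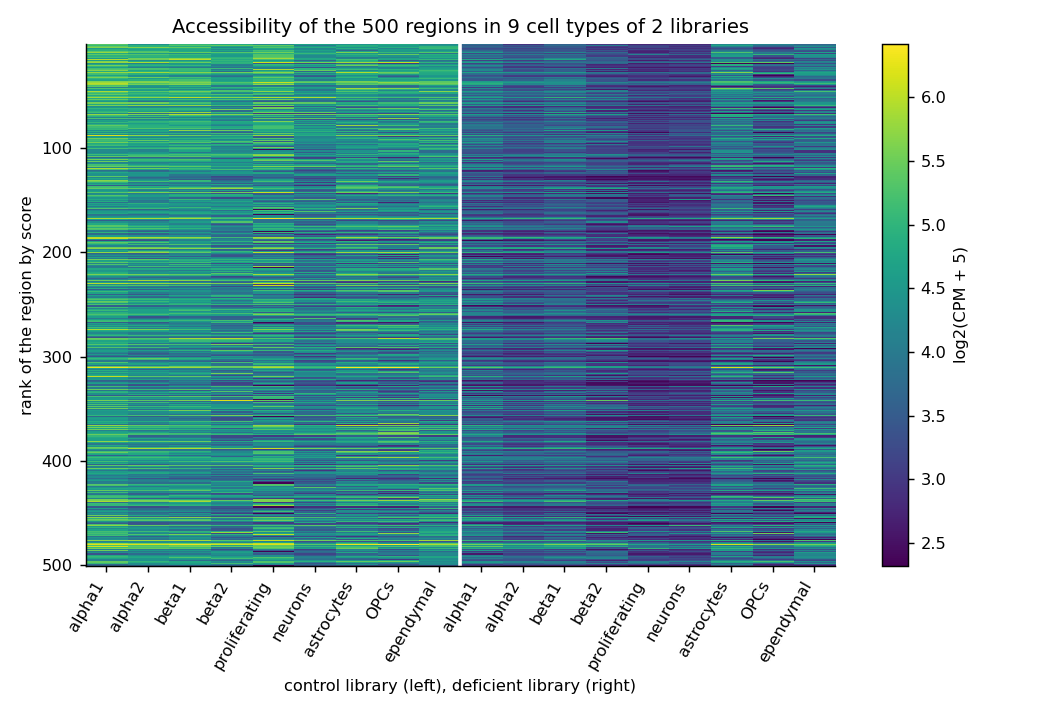
Level of each of the 500 regions (rows, ordered by rank of the score) as log2(CPM + 5), in colour, in 9 cell types of the control (left) and deficient library (right). Control columns are brighter than deficient ones; in the deficient library astrocytes (median 10.6 CPM) and ependymal cells (9.68 CPM) are the brightest columns and proliferating tanycytes (3.16 CPM) and neurons (3.35 CPM) the darkest.

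Counts per cell show how the fall was spread over cells. Each cell with at least 2000 detections was thinned to 2000, which left out 275 control and 328 deficient alpha2 cells. The loss was larger in neurons, with 280 of 882 control and 560 of 2520 deficient cells left out. Of the 63 control proliferating tanycytes, 51 were kept. Alpha2 cells then had a median of 20 detections in the 500 regions in the control (5th to 95th percentile 12 to 30) and 6 in the deficient library (1 to 17). Without thinning, the medians were 10.1 and 2.84 per 1000 detections. The bulk of deficient cells lay below the bulk of control cells, and the ranges met in their tails.

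Deficient tanycytes with a count at or above the control median were few. The members were chosen for a fall in these same cells, which favours such a low share. No share is given for members chosen in other cells, and the interval below treats cells as independent. At or above the control median were 166 of 4574 deficient alpha2 cells, or 3.63% (exact Clopper-Pearson interval 3.11 to 4.21%), against 54.5% of control alpha2 cells. The share was 3.94% in beta1 (84 of 2133 cells), 3.73% in alpha1 (23 of 617) and 1.09% in beta2 tanycytes (10 of 915). Relative to their mean, deficient alpha2 cells varied more than control ones, with a variance of 3.68 times the mean against 1.48 times. Their standard deviation was slightly lower (5.03 against 5.51 detections), with means of 6.90 and 20.5. With the lower boundary of the control 5th percentile in place of the median, the share was 13.9% in alpha2, 14.7% in alpha1, 21.4% in beta2 and 23.3% in beta1 tanycytes, so the size of this tail depends on the boundary.

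In the types outside the choice the share at or above the control median ranged from 0 to 22.3% of cells. None of 968 deficient proliferating tanycytes reached the control median of 21, which allows a share of up to 0.310% (3 counts of the total) or 0.380% by the exact interval. In neurons 34 of 1960 deficient cells (1.73%, 1.20 to 2.42%) reached the control median of 13, with medians of 13 in control and 4 in deficient cells. In OPCs the share was 9.61% (22 of 229 cells, 6.12 to 14.2%), in ependymal cells 13.6% (32 of 235, 9.50 to 18.7%) and in astrocytes 22.3% (45 of 202, 16.7 to 28.6%). At or above the control 5th percentile were 0.413% of deficient proliferating tanycytes, 36.6% of neurons, 53.3% of OPCs, 63.4% of astrocytes and 68.1% of ependymal cells. In neurons this boundary was at 5 detections, and 1098 of the 1960 deficient cells lay within 2 of it. Median counts were 16 and 8 in control and deficient OPCs, 17 and 10 in ependymal cells and 17 and 12 in astrocytes.

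**Figure D5:**
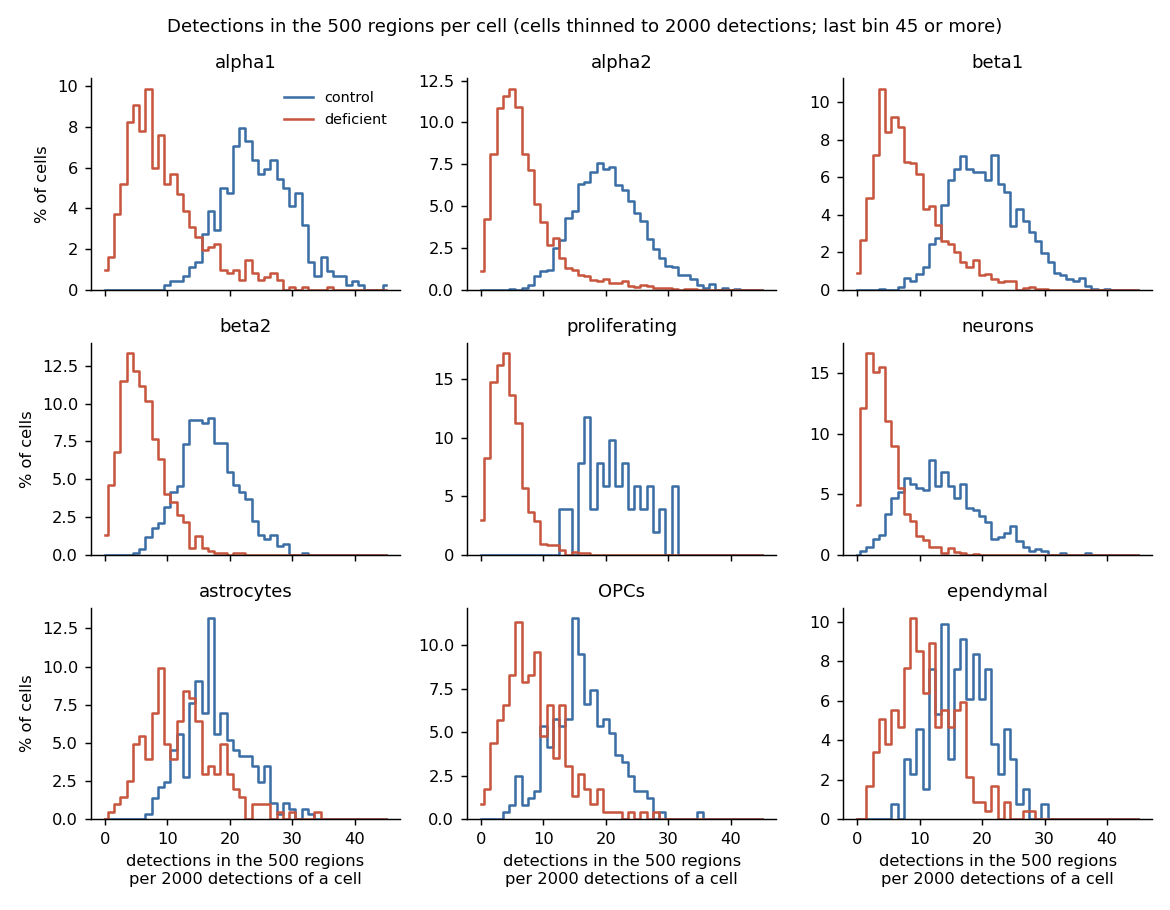
Share of cells (vertical axis, %) by number of detections in the 500 regions per 2000 detections of a cell (horizontal axis), control in blue and deficient in red, in 9 cell types. The curves are nearly apart in proliferating tanycytes (medians 21 and 4), meet in their tails in the tanycyte subtypes, and overlap widely in astrocytes (medians 17 and 12).

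For comparison, the mirror rule gave the 500 regions with the highest values of their lowest difference over the 4 subtypes, which were higher in all 4. Their lowest difference reached at least 0.43, and the score of the lowered regions was at most -0.667; these values chose the lists. In neurons the raised regions took 3.39 and 6.77 per 1000 detections (log2 ratio 1.00, 0.97 to 1.02), in OPCs 2.94 and 4.77 (0.70), in astrocytes 2.73 and 4.14 (0.60) and in ependymal cells 2.93 and 4.38 (0.58). Higher by 1 or more on the log2(CPM + 5) scale were 89 of them in neurons (background 0.567%) and 18 in astrocytes (background 0.44%). Both lists thus had ratios farther from 0 in neurons than in astrocytes and ependymal cells, in opposite directions; this order of types was not tested over animals.

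Deficient cells that held more detections in the lowered regions held fewer in the raised ones. Among alpha2 cells thinned to 2000 detections, the mean count in the raised regions was 13.6 in the 3936 deficient cells below the control 5th percentile of lowered regions, 9.97 in the 472 cells from there to below the control median, and 7.08 in the 166 cells at or above the control median. Control alpha2 cells had 6.0. In beta1 tanycytes the means were 12.5, 9.45 and 7.29, with 5.53 in control cells, and in astrocytes 9.81, 7.92 and 6.29, with 5.43 in control cells. In neurons they were 13.7, 13.4 and 11.4, with 6.76 in control cells. The first pair of neuron means, from 1242 and 684 cells, hardly differed beside standard deviations of 4.83 and 4.55. The third neuron mean came from 34 cells. In each of these types, cells at or above the control median thus still had a higher mean in the raised regions than control cells. So did those in alpha1 (8.13 against 5.54) and beta2 tanycytes (7.10 against 3.99, from 10 cells). The same held in OPCs (8.18 against 5.57) and ependymal cells (6.44 against 5.75). The margin was smallest in ependymal cells (32 deficient and 131 control cells, standard deviations 2.59 and 2.38). Astrocytes came next (45 and 288 cells, 2.94 and 2.57). Both margins were small beside the spread over cells. The control means are over all control cells, not only those at or above the control median.

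These ranges are not cell classes: 596 deficient alpha2 cells lay within 2 detections of the lower boundary, and both lists were chosen in cells that are counted here. Of the 166 alpha2 cells at or above the control median, 2 (1.20%) had a barcode that occurs in both libraries, against 1.58% of those below the control 5th percentile. Their median depth was 4087.5 detections against 4870. The part of depth in this relation was not tested beyond the thinning.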

How the data were processed

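GFP-positive cells of 1 control and 1 deficient library were profiled by single-cell ATAC-seq with a droplet kit. Per the labels' protocols, reads went through Cell Ranger ATAC with default parameters; mm10 is the genome build, and MACS2, Seurat, Signac 0.2.5 and Cell Ranger 3.1 the tools, per the submitters' processing notes. Not given in the sources used here are the calling of regions, the filters on cells, the treatment of doublets and the naming of types. The deposited matrix lists presence or absence of 107377 regions in 22285 cells, without fragment numbers, so the values saturate for widely open regions.

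The matrix names no cells, so they were taken in the order of the authors' annotation. With type profiles from every other cell, 80.9% of control and 76.2% of deficient cells were assigned to their own type, against 45.6% and 34.2% with the annotation shifted by 1 cell.

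The members and lists were chosen with earlier results of these data known. Cells are not replicates, so detections were summed per type and library without a minimum. Sums have exact Poisson, ratios exact conditional binomial and shares exact Clopper-Pearson intervals (95%). Regions named by number are the 2 lowest scores; others are given by rank, as extremes or by control level. Alternatives were other pseudocounts (1 and 10 CPM), median-of-ratios scaling, a minimum of 50 detections, thinning to 2000 detections, the deepest 5% of cells left out (possible doublets), a mean score, 250 or 1000 members, a choice in odd-numbered cells and, added after seeing the data, shared barcodes left out. Scripts were tested on simulated data. The software was matplotlib 3.10.9, pandas 2.3.3, scipy 1.17.1 and numpy 2.4.6 under Python 3.11.15.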

Additional observations from a re-analysis of the deposited data

How the results depend on the processing

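No paired analysis was possible because each genotype has 1 library. Under none of the alternatives run did a summed log2 ratio or a median difference per cell change sign. Of 72 summed log2 ratios under alternatives, 48 moved outside the counting interval of the main value. With 250 members they were -1.49 in alpha1, -1.69 in alpha2, -1.44 in beta1, -1.66 in beta2, -2.48 in proliferating tanycytes, -1.84 in neurons, -1.05 in OPCs and -0.78 in ependymal cells. With 1000 members they were -1.24 in alpha1, -1.40 in alpha2, -1.17 in beta1, -1.30 in beta2, -1.96 in proliferating tanycytes, -1.44 in neurons, -0.49 in astrocytes, -0.82 in OPCs and -0.60 in ependymal cells. With members chosen at a pseudocount of 1 CPM they were -1.64 in alpha1, -1.81 in alpha2, -1.55 in beta1, -1.76 in beta2, -2.56 in proliferating tanycytes, -1.98 in neurons, -1.07 in OPCs and -0.76 in ependymal cells. With members chosen in odd-numbered and measured in even-numbered cells they were -1.19 in alpha1, -1.51 in alpha2, -1.25 in beta1, -1.32 in beta2, -1.59 in neurons and -0.45 in astrocytes. With median-of-ratios scaling they were -1.42 in alpha1, -1.63 in alpha2, -1.39 in beta1, -1.56 in beta2, -2.0 in proliferating tanycytes, -1.69 in neurons, -0.59 in astrocytes and -1.0 in OPCs. With cells thinned to 2000 detections they were -1.39 in alpha1, -1.57 in alpha2, -1.32 in beta1, -1.44 in beta2, -2.30 in proliferating tanycytes, -1.69 in neurons, -0.48 in astrocytes and -0.59 in ependymal cells. Without the deepest 5% of cells the value was -1.58 in alpha2. Counts of members at -1 or lower became, with a pseudocount of 1 CPM, 409 in alpha1, 477 in alpha2, 404 in beta1, 451 in beta2, 404 in neurons, 102 in astrocytes, 245 in OPCs and 158 in ependymal cells. With 10 CPM they became 77 in alpha1, 84 in alpha2, 39 in beta1, 45 in beta2, 80 in neurons, 3 in astrocytes, 33 in OPCs and 19 in ependymal cells. With thinned cells the count was 82 in astrocytes, over 5.77% of all regions. The shares of all regions at the other pseudocounts stand in the report beside these counts. The median per cell in alpha2 fell by 7.21 per 1000 unthinned and by 7.0 thinned. Of the 500 members, 320 were chosen again at a pseudocount of 1 CPM, 326 with at least 50 detections in each subtype, 305 with thinned cells, 343 in odd-numbered cells, 355 by the mean difference and 405 at 10 CPM. The causes were not tested. Depth limits single members in the types with few cells, above all the 63 control proliferating tanycytes, and with 1 library per genotype no value has an error between animals.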

Other observations

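The 500 lowered regions were spread over the whole file order. Their row numbers ran from 221 to 107241 with a median gap of 147, and each 5% of the row numbers held 10 to 35 of them. Another member lay within 5 row numbers for 51 of the 500, against 40 in the raised list. The files do not say what the row order stands for, and no position was read from it.

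In deficient ependymal cells the share of detections in the 500 regions was lower in deeper cells, from 6.27 per 1000 in the shallowest 25% of cells (median 2066 detections) to 4.74 in the deepest (median 7826). In control ependymal cells it went the other way, from 7.95 to 8.79 per 1000. In deficient astrocytes the shallowest 25% had 6.75 and the deepest 5.59 per 1000, against 8.37 and 8.95 in control astrocytes.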
